A study of Mus musculus with 6 samples.

Results

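The 10 genes described here encode transcription factors of the AP-1 family and factors that work beside it, namely Fos, Fosb, Fosl2, Jun, Junb, Jund, Atf3, Batf, Bhlhe40 and Irf4. They were taken by symbol from the deposited count table, in which they are 10 of 55291 rows, and all 10 passed the filter on low counts that left 14475 genes for the test. RNA had been sequenced from type 1 innate lymphoid cells (ILC1s, 3 libraries) and natural killer (NK) cells (3 libraries). Both cell types were sorted out of MC38 tumours that had grown for 14 days under the skin of wild-type C57BL/6 mice. MC38 is a mouse colon carcinoma line that came from C57BL/6 mice. The labels give neither the age of the mice nor the surface markers of the sort. They also leave unsaid whether each library is a different mouse or pool of mice, and p-values therefore describe the spread between these libraries alone. No day of sorting, extraction or sequencing is given for any library.

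AP-1 factors bind DNA as pairs of basic leucine zipper (bZIP) proteins. A Fos protein needs a Jun partner, whereas Jun proteins can also pair with each other, and ATF3 and BATF pair with Jun proteins. Many of these genes are immediate early genes: stimulation through cell surface receptors, cytokines or stress raises their transcripts within minutes, and handling of tissue can do the same. In lymphocytes, BATF with a Jun partner binds next to IRF4 or IRF8 on composite sites. BHLHE40 is a basic helix-loop-helix (bHLH) factor that mostly represses transcription and that is induced in activated lymphocytes.

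Total counts were 16931099 to 20224847 in the ILC1 libraries and 19551574 to 19814075 in the NK libraries. At these depths 3 counts equal 0.144 to 0.174 CPM (counts scaled to a common library total, computed here on TMM-scaled totals, TMM being a scaling that evens out library composition). Markers of the sorted cells followed the labels: all 10 ILC1 markers were higher in every ILC1 library than in every NK library, and 8 of 10 NK cell markers were lower. Both lists were chosen with earlier results of these data known, so this describes the libraries and is no check of the labels. Of 8 markers shared by both cell types, 6 were lower in every ILC1 library than in every NK library (13.3% of all genes). Other features did not follow the labels. Across genes, log2 CPM of NK replicate 3 correlated at 0.977 and 0.971 with ILC1 replicates 1 and 2, and at 0.879 and 0.880 with NK replicates 1 and 2, although its ILC1 markers summed to 581 CPM, as low as in the other NK libraries. Gzmc made up 362 CPM of that sum and was, with Tnfsf10, lower than in the other NK libraries. Itga1, Cxcr6, Il7r, Inpp4b, Tmem176a and Tmem176b were higher than there, while Zfp683 and Cd200r1 lay between. The sum of the 10 NK cell markers was lower in NK replicate 3 than in the other NK libraries, 4173 CPM beside 6863 and 6423 CPM. The 12 macrophage or monocyte markers summed to 331, 244 and 11646 CPM in ILC1 replicates 1 to 3, against 181, 103 and 236 CPM in NK replicates 1 to 3, and all 12 were highest in ILC1 replicate 3. The 10 fibroblast or matrix markers summed to 1939, 2630 and 5952 CPM in ILC1 replicates 1 to 3, against 10.8, 19.6 and 1586 CPM in NK replicates 1 to 3. Fn1, which encodes fibronectin, made up most of that sum in ILC1 replicate 3, and without it the sums were 1397, 2056 and 64.9 CPM in ILC1s, against 7.78, 13.1 and 1159 CPM in NK cells. Each of the 9 markers other than Fn1 was higher in ILC1 replicates 1 and 2 and NK replicate 3 than in the other 3 libraries, and these 3 are called the collagen-rich libraries here. Fn1 was set aside after its values were seen. Whether the collagen-rich libraries share a day or batch was not tested. Lum was at 0 in NK replicates 1 and 2 and at no more than 0.723 CPM elsewhere. The part of these other cells in the results was not tested.

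The sequences just upstream of Fos, Jun and Atf3 are shown because Atf3 had the largest difference between the cell types, and because Fos was highest and Jun lowest in the same library, ILC1 replicate 3. RefSeq (GRCm38.p6) gave a promoter for 9 of the 10 genes. The lines below give the 250 bases before the RefSeq start, 5′ to 3′ on the strand of the gene, with capitals marking matches on either strand to TGACGT (the core of the cyclic AMP response element, contained in the full element TGACGTCA), TGANTCA (any base at N, which takes in the AP-1 site or TRE, with C or G there, and is broader) or TGACATCA (a variant searched for because it is known from the Jun promoter).
Fos, chr12:85473640-85473889, forward strand: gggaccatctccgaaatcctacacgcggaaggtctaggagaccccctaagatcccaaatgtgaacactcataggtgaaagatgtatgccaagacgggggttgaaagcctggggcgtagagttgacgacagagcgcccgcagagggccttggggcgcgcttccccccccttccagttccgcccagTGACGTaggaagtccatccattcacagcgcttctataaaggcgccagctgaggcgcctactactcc
Jun, chr4:95052223-95052472, reverse strand: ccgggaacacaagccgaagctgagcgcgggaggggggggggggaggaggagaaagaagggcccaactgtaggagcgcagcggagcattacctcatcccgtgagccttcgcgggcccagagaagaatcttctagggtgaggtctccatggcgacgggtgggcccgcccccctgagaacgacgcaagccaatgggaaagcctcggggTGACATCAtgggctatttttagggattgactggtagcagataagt
Atf3, chr1:191183334-191183583, reverse strand: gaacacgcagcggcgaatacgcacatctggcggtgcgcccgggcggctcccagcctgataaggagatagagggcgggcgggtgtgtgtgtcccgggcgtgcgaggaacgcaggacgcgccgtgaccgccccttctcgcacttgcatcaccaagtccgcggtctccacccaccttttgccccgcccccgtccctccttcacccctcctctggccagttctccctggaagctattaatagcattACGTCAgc
TGACGT was found 66 to 61 bases before the start of Fos, on the reverse strand 8 to 3 bases before the start of Atf3, and 98 to 93 bases before the start of Batf. These are 3 of the 9 promoters, where 6.47% of all 32841 RefSeq promoter windows of this length held it. TGACATCA lay 45 to 38 bases before the start of Jun, where 2.93% of all windows held it. None of the 9 windows held TGACGTCA (1.55% of all windows), TGANTCA (6.75%), the E-box CACGTG that BHLHE40 can bind (6.02%) or a serum response CArG box (1.47%). TATAAA was found before Fos and Irf4 (12.4% of all windows). A match is a description of the letters in this window. Sites farther than 250 bases before the start were not searched, so a promoter may hold these elements outside it. The RefSeq starts of Atf3 and Fosl2 used here lie inside the longer genes of the GENCODE annotation and that of Jund lies upstream of the GENCODE gene, so these windows are not next to the GENCODE starts.

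Per length of transcript, Junb was the most abundant of the 10 genes and Irf4 the least, in each of the 6 libraries. Levels were compared between genes as CPM per kilobase of exon, from the GENCODE M21 annotation of GRCm38. In ILC1s, Junb averaged 765 ± 113 CPM per kilobase (mean ± SD, n = 3), followed by Jun with 368 ± 120, Fos with 323 ± 163 and Bhlhe40 with 221 ± 39.6. Jund followed with 155 ± 18.0 CPM per kilobase, Atf3 with 152 ± 98.6, Fosb with 122 ± 8.89 and Fosl2 with 84.6 ± 11.8, and Batf (18.5 ± 2.15) and Irf4 (1.63 ± 1.28) were far below. In NK cells the order was Junb at 615 ± 32.5 CPM per kilobase, Jun at 447 ± 105, Fos at 358 ± 56.6, Jund at 208 ± 52.3 and Bhlhe40 at 186 ± 32.1. Below these, NK cells had Fosb at 76.1 ± 43.1, Fosl2 at 64.6 ± 5.28, Atf3 at 28.8 ± 29.3, Batf at 24.9 ± 7.76 and Irf4 at 0.594 ± 0.0388 CPM per kilobase. Some neighbours changed places between libraries of the same cell type, and their order is not settled. In ILC1s these were Jun and Fos, Fos and Bhlhe40, Jund and Atf3, and Atf3 and Fosb, and in NK cells Jund and Bhlhe40, Fosb and Fosl2, and Atf3 and Batf. In NK cells the ranges of Jun and Fos, and of Fosl2 and Atf3, overlapped between libraries, but Jun was above Fos and Fosl2 above Atf3 within each of the 3 libraries. Atf3 was the gene whose place differed most: it ranked 7, 7 and 3 in ILC1 replicates 1 to 3, against 9, 9 and 8 in NK replicates 1 to 3.

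**Figure D1:**
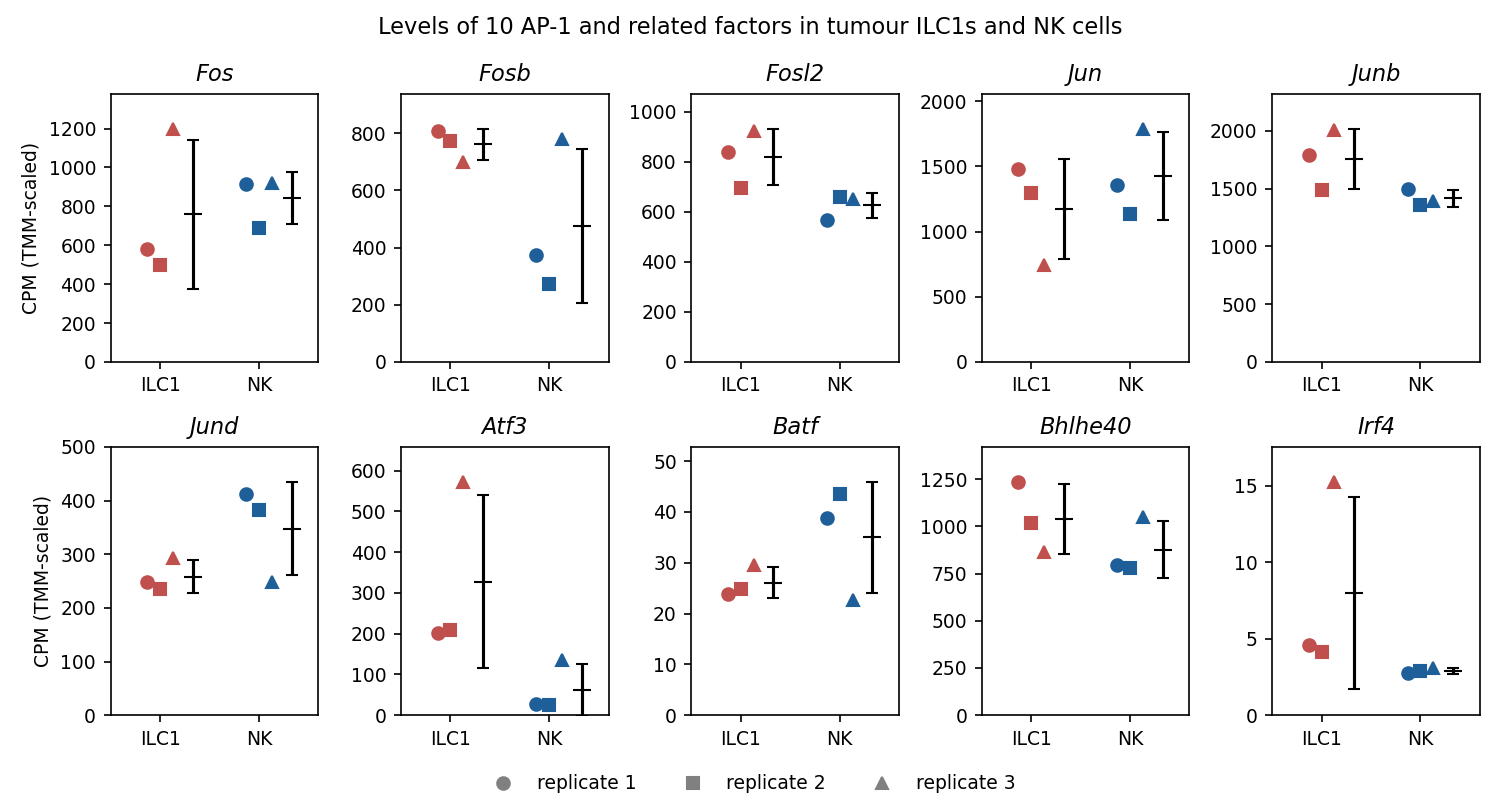
Level of each gene (vertical axis, CPM on TMM-scaled totals, from 0) in the 3 ILC1 libraries (left) and the 3 NK libraries (right); symbols are replicates 1 to 3, and the bar beside them is the mean ± SD. Atf3, Fosl2 and Irf4 are the panels in which all ILC1 points lie above all NK points.

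No member passed the test between ILC1s and NK cells. With edgeR's quasi-likelihood test on all 14475 genes and a Benjamini-Hochberg adjusted p under 0.05, 0 of the 10 were called, where 12 genes (0.0829% of those tested; 0.076% higher and 0.00691% lower in ILC1s) were called in all. For library sets as a term, described with Jund, only effect sizes are read, since that fit compares the cell types through 1 NK library. At an unadjusted p under 0.05 in edgeR's main test there were 3 of the 10 (Atf3, Fosl2 and Irf4), against 15.8% of all genes. DESeq2 called 1 member, Atf3, against 8.1% of the 12465 genes to which it gave an adjusted p, and limma-voom called 0 (0.124% of all genes). In the same 3 genes every ILC1 library was above every NK library, as in 12.5% of all genes, and 25.8% of all genes were free of overlap in either direction. For 0 members was every ILC1 library below every NK library (13.3% of all genes), and 7 members overlapped. The fitted fold change was above 0 for 6 members and below 0 for 4, with a median log2 fold change (ILC1 minus NK) of 0.28 over the members and 0.08 over all genes tested. The median size of the change, whatever its sign, was 0.41 over the members and 0.39 over all genes on the log2 scale. Permuting 3 against 3 libraries gives no two-sided exact p under 0.1, which is why only the fit over all genes is used for each member.

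**Figure D2:**
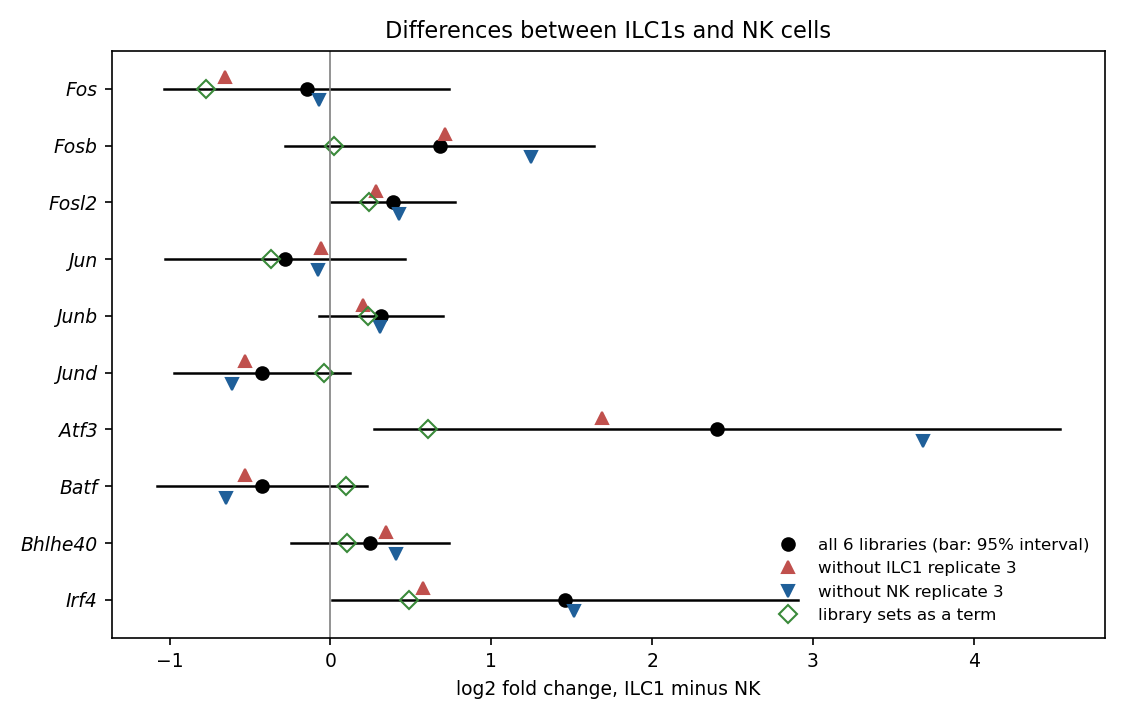
Log2 fold change (horizontal axis, ILC1 minus NK) of each gene: black points and bars are edgeR estimates from all 6 libraries with 95% intervals, and other symbols are the estimates without ILC1 replicate 3, without NK replicate 3 and with library sets as a term. Atf3 has the widest bar, 0.27 to 4.53, and its estimates run from 0.60 to 3.68.

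Among the Fos group, which supplies the partners that need a Jun protein, Fos itself differed more within ILC1s than between the cell types. Its level was 581, 497 and 1200 CPM in ILC1 replicates 1 to 3, against 916, 687 and 920 CPM in NK replicates 1 to 3. ILC1 replicates 1 and 2 were thus the lowest libraries and ILC1 replicate 3 the highest, and the groups overlapped. The log2 fold change was -0.15 ± 0.36 (SE; 95% interval -1.03 to 0.74; edgeR adjusted p = 0.854). Leaving out ILC1 replicate 3, where macrophage markers were high, gave -0.65 (adjusted p = 0.258), and leaving out ILC1 replicate 1 or 2 gave 0.02 or 0.089. In the collagen-rich libraries alone, with 581 and 497 CPM in ILC1s, against 920 CPM in NK replicate 3, the log2 fold change was -0.81. That value rests on 1 NK library, and its replicate spread comes from ILC1 replicates 1 and 2 alone, so it is given as a description and not as a test between the cell types.

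Fosb, the Fos relative that is known for a stable shortened form made by splicing, had 809, 774 and 700.0 CPM in ILC1 replicates 1 to 3, against 374, 272 and 780 CPM in NK replicates 1 to 3. NK replicates 1 and 2 were well below the other 4 libraries, while NK replicate 3 was among the ILC1 values. Fosb thus had a log2 fold change of 0.68 ± 0.39 (95% interval -0.28 to 1.64; edgeR adjusted p = 0.450). Without NK replicate 3 it was 1.25 and passed edgeR's test (adjusted p = 0.0470, where 3% of all genes passed), and over 17 alternatives the adjusted p ran from 0.0352 to 0.991. In the collagen-rich libraries alone it was -0.021. The counts are of the whole gene and do not separate the splice forms.

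Fosl2 encodes FRA-2, a Fos protein that appears later and lasts longer after stimulation than FOS. It had 839, 696 and 921 CPM in ILC1 replicates 1 to 3, against 566, 658 and 651 CPM in NK replicates 1 to 3. Every ILC1 library was above every NK library, though ILC1 replicate 2 was close to NK replicate 2. This gave a log2 fold change of 0.39 ± 0.16 (95% interval 0.0038 to 0.78; edgeR adjusted p = 0.314), and it kept its sign in each of the 17 alternatives, from 0.20 to 0.50, without passing in any.

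The Jun group supplies the other side of the AP-1 pair. Jun had 1478, 1295 and 745 CPM in ILC1 replicates 1 to 3, against 1356, 1133 and 1791 CPM in NK replicates 1 to 3. The highest library was NK replicate 3 and the lowest ILC1 replicate 3, which had the highest Fos, and the groups overlapped. For Jun the log2 fold change was -0.28 ± 0.31 (95% interval -1.03 to 0.47; edgeR adjusted p = 0.688), and -0.06 without ILC1 replicate 3.

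Junb, whose protein in other settings can oppose JUN and which is the usual partner of BATF in T cells, had 1787, 1488 and 2006 CPM in ILC1 replicates 1 to 3, against 1499, 1356 and 1390 CPM in NK replicates 1 to 3. ILC1 replicate 2 lay just under NK replicate 1, which was the only overlap. For Junb the log2 fold change was 0.32 ± 0.16 (95% interval -0.07 to 0.70; edgeR adjusted p = 0.389).

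Jund, the Jun gene that is known for steady expression in resting cells, had 248, 235 and 292 CPM in ILC1 replicates 1 to 3, against 413, 382 and 249 CPM in NK replicates 1 to 3. NK replicates 1 and 2 were above all 3 ILC1 libraries, while NK replicate 3 was at the ILC1 level. For Jund the log2 fold change was -0.43 ± 0.22 (95% interval -0.98 to 0.12; edgeR adjusted p = 0.407), and -0.04 with library sets as a term. That fit treats NK replicates 1 and 2, and ILC1 replicate 3, as sets of their own. Its difference between the cell types thus comes from NK replicate 3 against ILC1 replicates 1 and 2. It rests on 1 NK library, so it is given as a description and not as a test between the cell types.

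The make-up of each group followed from these levels. Per kilobase of exon, Junb made up 55.9, 54.2 and 68.1% of the Jun group in ILC1 replicates 1 to 3, against 49.2, 50.2 and 45.9% in NK replicates 1 to 3. The Junb share was thus higher in every ILC1 library than in every NK library. Jun made up 33.4, 34.0 and 18.2% of the Jun group in ILC1 replicates 1 to 3, against 32.1, 30.3 and 42.7% in NK replicates 1 to 3, and these overlapped. Of the Fos group, Fos made up 53.3, 51.9 and 71.1% in ILC1 replicates 1 to 3, against 76.7, 72.4 and 67.0% in NK replicates 1 to 3. ILC1 replicates 1 and 2 had the smallest Fos shares and the largest Fosb shares, 28.0 and 30.4%, while the Fosb share was 15.6% in ILC1 replicate 3 and 11.8, 10.8 and 21.4% in NK replicates 1 to 3. Shares are of transcripts, not of proteins, and were not tested, since the genes were chosen with results of these data known.

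**Figure D3:**
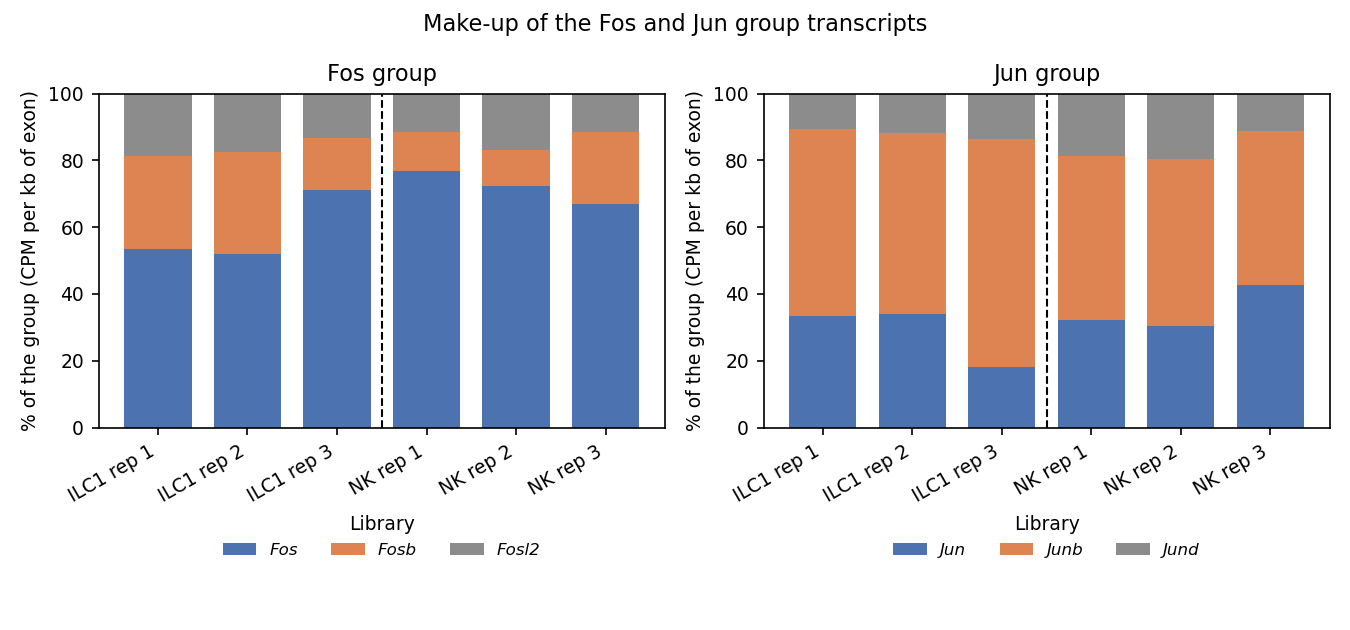
Share of each gene (vertical axis, % of the group's summed CPM per kilobase of exon) in the Fos group (left: Fos, Fosb and Fosl2) and the Jun group (right: Jun, Junb and Jund) in each library, ILC1 libraries left of the dashed line and NK libraries right of it. Junb takes 54.2 to 68.1% of the Jun group in ILC1s and 45.9 to 50.2% in NK cells.

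Atf3 had the largest difference of the 10 genes and the largest spread. ATF3 is a bZIP protein that is induced by stress and that restrains inflammatory genes in macrophages. It had 201, 208 and 573 CPM in ILC1 replicates 1 to 3, against 26.4, 24.8 and 135 CPM in NK replicates 1 to 3. Every ILC1 library was above every NK library, but NK replicate 3 was nearer to ILC1 replicates 1 and 2 than to the other NK libraries. The means were 327 ± 212 CPM in ILC1s, against 62.0 ± 63.0 CPM in NK cells (SD, n = 3 each), and the log2 fold change was 2.40 ± 0.86 (95% interval 0.27 to 4.53; edgeR adjusted p = 0.286). DESeq2 gave 2.44 with an adjusted p of 0.0115, and over the 17 alternatives the adjusted p ran from 0.0115 to 0.617. It passed with DESeq2 and with limma-voom and library weights, and otherwise only in the collagen-rich libraries alone, a fit with 1 NK library. The size depended on single libraries: the log2 fold change was 1.69 without ILC1 replicate 3 and 3.68 without NK replicate 3. In the collagen-rich libraries alone it was 0.56, with 201 and 208 CPM in ILC1s, against 135 CPM in NK replicate 3. With library sets as a term, which rests on the same comparison, the log2 fold change of Atf3 was 0.60.

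The libraries with more Atf3 were also those with more transcripts of some, but not all, other cell types. The 4 libraries with most Atf3, all ILC1 libraries and NK replicate 3, were those with the highest sums of the fibroblast or matrix list, Fn1 included, and the library with most Atf3 was the one with the macrophage markers. The neutrophil markers were also higher in these 4 libraries than in NK replicates 1 and 2. The endothelial, T cell and B cell lists instead had their highest sums, 257, 605 and 669 CPM, in NK replicate 1, where Atf3 was low. The dendritic cell list had its lowest sum, 63.4 CPM, in NK replicate 3. The part of such cells in the Atf3 level was not tested. In bulk libraries such as these, more cells of a type and more RNA per cell cannot be told apart.

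**Figure D4:**
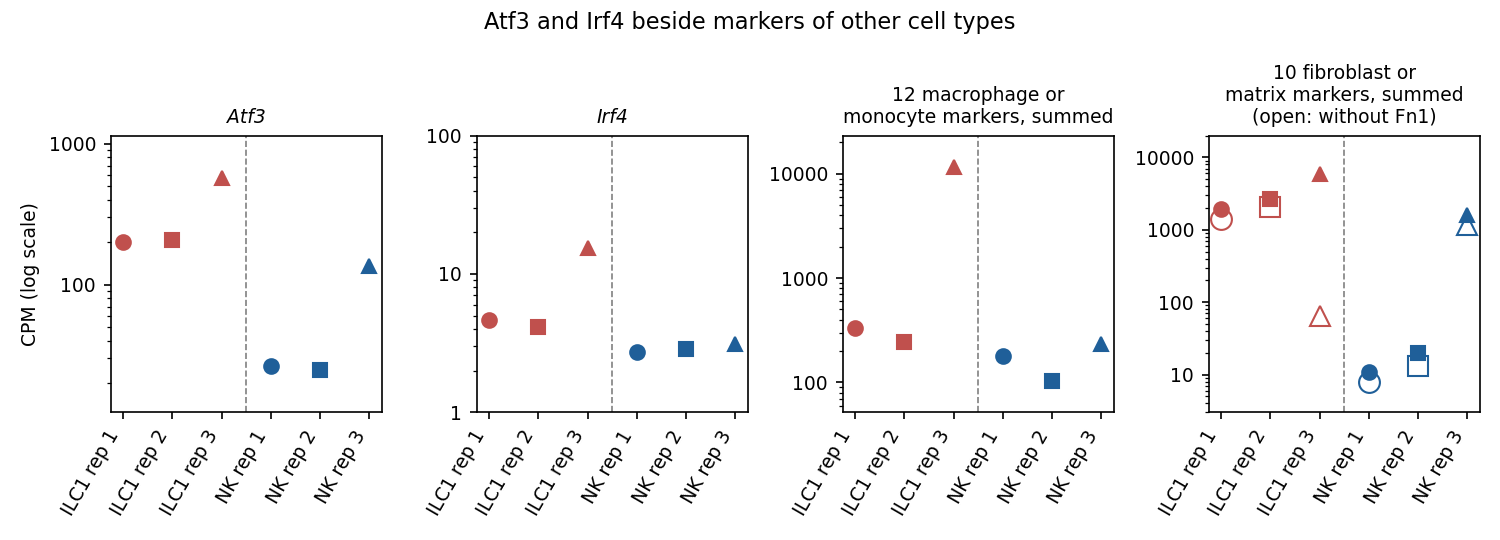
Atf3, Irf4 and the summed markers of macrophages or monocytes and of fibroblasts or matrix (vertical axes, CPM on log scales) in each library, ILC1 libraries left of the dashed line and NK libraries right of it; open symbols leave out Fn1. ILC1 replicate 3 has the most Atf3 (573 CPM), the most Irf4 (15.3 CPM) and the highest macrophage sum (11646 CPM).

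Batf, which pairs with Jun proteins and has no activation domain of its own, had 23.9, 24.8 and 29.5 CPM in ILC1 replicates 1 to 3, against 38.7, 43.6 and 22.7 CPM in NK replicates 1 to 3. NK replicates 1 and 2 were above the other 4 libraries and NK replicate 3 was the lowest of all, so the groups overlapped. Batf's log2 fold change was -0.43 ± 0.27 (95% interval -1.08 to 0.22; edgeR adjusted p = 0.480), and 0.10 with library sets as a term.

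Irf4, which encodes the factor that BATF and a Jun protein bind DNA with in activated lymphocytes, was the least abundant of the 10 genes. The raw counts of Irf4 were 83, 85 and 264 in ILC1 replicates 1 to 3, against 55, 56 and 65 in NK replicates 1 to 3. These equal 4.61, 4.14 and 15.3 CPM in ILC1s, against 2.74, 2.87 and 3.12 CPM in NK cells. All ILC1 libraries were above all NK libraries, with ILC1 replicate 3 far above the rest. The log2 fold change was 1.46 ± 0.59 (95% interval 0.0087 to 2.91; edgeR adjusted p = 0.315), and 0.57 without ILC1 replicate 3, whose macrophage markers stand beside this value in the plot of Atf3 and Irf4. Irf8, the other known partner of BATF, was far more abundant, with 985, 887 and 903 CPM in ILC1 replicates 1 to 3, against 1331, 1399 and 861 CPM in NK replicates 1 to 3 (log2 fold change -0.37 ± 0.21, edgeR adjusted p = 0.443). With library sets as a term its log2 fold change was 0.12.

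Bhlhe40 had 1236, 1015 and 865 CPM in ILC1 replicates 1 to 3, against 797, 780 and 1050 CPM in NK replicates 1 to 3. NK replicates 1 and 2 were the lowest libraries and NK replicate 3 lay among the ILC1 values. Bhlhe40's log2 fold change was 0.25 ± 0.20 (95% interval -0.24 to 0.74; edgeR adjusted p = 0.590).

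The 10 genes did not all move together across the libraries. Each gene's log2 CPM was centred on its mean over the 6 libraries, and the root mean square difference between centred profiles was taken as the measure of likeness. By this measure Jund and Batf were the closest pair (0.11 on the log2 scale) and Fosl2 and Junb the next (0.12). Jund and Batf were both higher in NK replicates 1 and 2 than in the other 4 libraries, and Fosl2 and Junb were both highest in ILC1 replicate 3. Fos was nearest to Junb (0.41), and Jun was nearest to Bhlhe40 (0.34). Atf3 was nearest to Irf4 but far from it (1.08), and for each of the other members except Irf4, Atf3 was the farthest. The measure grows with the range of a gene, so a large distance does not mean an opposite direction. Fosb lay on the same side of its mean as Atf3 in every library, though Atf3 was its farthest member. Atf3 ranged over 4.53 on the log2 scale and Irf4 over 2.43, while the others ranged over 0.57 (Junb) to 1.57 (Fosb). Among 8806 other named genes with a mean of at least 10 CPM, those nearest to Fos were Pim1 (0.10), Cmpk2 (0.13) and Nfkbiz (0.13). Nearest to Batf were Tpst2, Tprgl and Itgb7 (0.07 each). Profiles over 6 libraries of 2 cell types share depth and composition, so this is a description only.

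**Figure D5:**
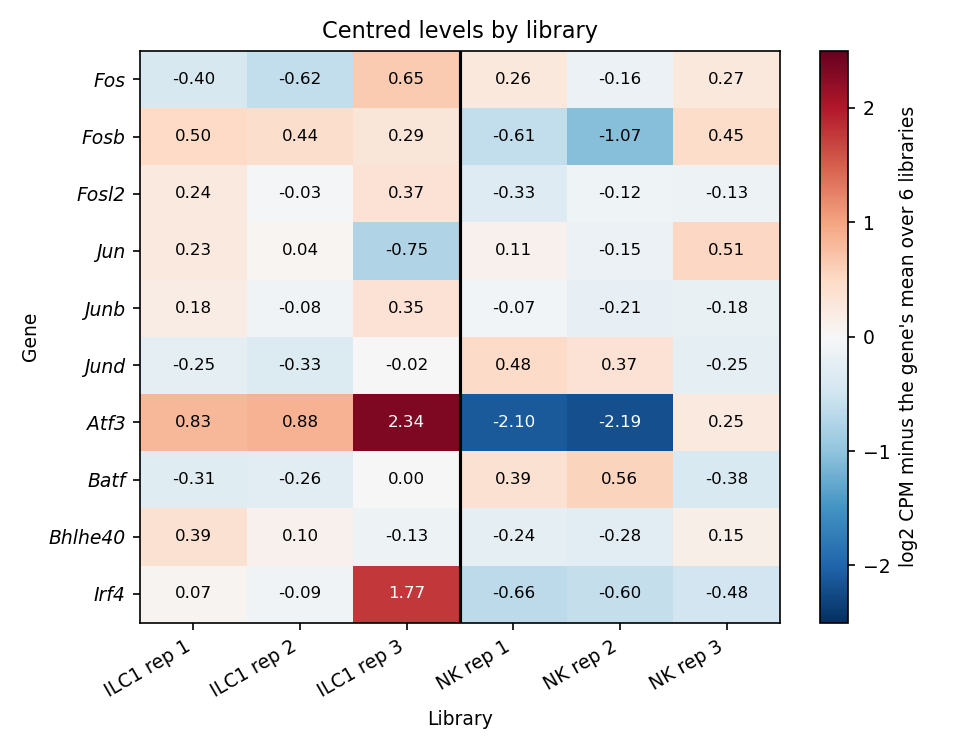
Centred level of each gene (rows; log2 CPM minus the gene's mean over the 6 libraries, printed in each cell) in each library (columns; ILC1 replicates 1 to 3 left of the line, NK replicates 1 to 3 right of it). Atf3 runs from -2.19 in NK replicate 2 to 2.34 in ILC1 replicate 3, and Jun is lowest (-0.75) in ILC1 replicate 3, where Fos is highest (0.65).

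Other genes of the pathway were read from the same fit. Of 34 other AP-1, ATF and small bZIP genes tested, 0 passed edgeR's test (with no adjustment of p, 4 were higher and 3 lower at the same threshold; calls by DESeq2 were 2 higher and 2 lower, by limma-voom 0). Their median log2 fold change was 0.11. Over all genes, 15.8% had an unadjusted p under 0.05 in edgeR's test. DESeq2 called 8.1% of the genes to which it gave an adjusted p, and limma-voom 0.124% of all genes. Maff, a small Maf protein without an activation domain, had 156, 170 and 183 CPM in ILC1 replicates 1 to 3, against 78.0, 106 and 120 CPM in NK replicates 1 to 3 (log2 fold change 0.74 ± 0.19, edgeR adjusted p = 0.185, DESeq2 adjusted p = 0.0082). Crebl2, with the smallest p of the list, was lower in ILC1s. It had 15.0, 13.9 and 13.7 CPM in ILC1 replicates 1 to 3, against 26.1, 29.0 and 21.3 CPM in NK replicates 1 to 3 (log2 fold change -0.84 ± 0.18, edgeR adjusted p = 0.150, DESeq2 adjusted p = 0.0096). Of 18 other IRF and bHLH genes tested, 0 passed (1 higher and 1 lower at an unadjusted p under 0.05; DESeq2 1 higher, limma-voom 0), with a median of -0.04.

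The kinases and factors that drive AP-1 transcription and activity, a list of mitogen-activated protein kinase (MAPK) cascade genes, had 0 of 35 tested members past edgeR's test (0 higher and 3 lower at an unadjusted p under 0.05; DESeq2 1 lower, limma-voom 0) and a median of -0.07. NFAT proteins bind DNA together with AP-1 after calcium signals. Of 19 NFAT and calcium signalling genes tested, 0 passed edgeR's test, 7 were lower and 0 higher at an unadjusted p under 0.05, while calls by DESeq2 were 3 lower and by limma-voom 0. For 7 of the 19 genes every ILC1 library was below every NK library, where this held for 13.3% of all genes and 15.8% of all genes had an unadjusted p under 0.05 in either direction. DESeq2 called 8.1% of the genes to which it gave an adjusted p. The median of the list was -0.19. This list too was chosen with earlier results of these data known, so its counts are a description only. Nfatc1 had 182, 150 and 118 CPM in ILC1 replicates 1 to 3, against 278, 308 and 250 CPM in NK replicates 1 to 3 (log2 fold change -0.89 ± 0.19, edgeR adjusted p = 0.150, DESeq2 adjusted p = 0.00094). Orai2, a calcium channel gene, had 47.0, 46.3 and 58.6 CPM in ILC1s, against 116, 119 and 77.5 CPM in NK cells, a log2 fold change of -1.04 ± 0.21 (edgeR adjusted p = 0.134, DESeq2 adjusted p = 0.0022).

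Of 37 tested immediate early and tissue dissociation genes, which handling can raise together with Fos and Jun, 0 passed edgeR's test (1 higher and 2 lower at an unadjusted p under 0.05; DESeq2 1 higher and 1 lower, limma-voom 0). Over all genes, the shares were 15.8% at an unadjusted p under 0.05 in edgeR's test and 8.1% with DESeq2. The median of the list was 0.34. Its genes summed to 18596, 17761 and 21310 CPM in ILC1 replicates 1 to 3, against 15800, 14832 and 20343 CPM in NK replicates 1 to 3. The sum was thus high in NK replicate 3 as well, and the groups overlapped. Nr4a3, an orphan nuclear receptor gene induced by antigen receptor signals, had 176, 142 and 177 CPM in ILC1 replicates 1 to 3, against 90.4, 87.2 and 92.3 CPM in NK replicates 1 to 3 (log2 fold change 0.87 ± 0.13, edgeR adjusted p = 0.103, DESeq2 adjusted p = 1.5e-06). Ier5 went the other way, with 290, 284 and 382 CPM in ILC1 replicates 1 to 3, against 551, 447 and 459 CPM in NK replicates 1 to 3 (log2 fold change -0.61 ± 0.18, edgeR adjusted p = 0.222, DESeq2 adjusted p = 0.037).

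Of 34 tested genes that are known as AP-1, BATF or IRF4 targets in lymphocytes, 1 passed edgeR's test, where 0.076% of all genes passed as higher. With p unadjusted, 10 were higher and 6 lower, against 15.8% of all genes in either direction. The list was chosen with earlier results of these data known, so its counts cannot show whether such targets differed more often than other genes. Calls by DESeq2 were 7 higher and 4 lower (8.1% of all genes with an adjusted p), limma-voom made 2 (0.124%), library sets as a term gave 3 higher (0.228%), and the median was 0.61. The share of all genes given for library sets covers both directions. That fit compares the cell types through 1 NK library, so its count is not a count of differences between the cell types. The gene that passed edgeR's main test was Pdcd1, which encodes PD-1. It had 87.8, 86.8 and 190 CPM in ILC1 replicates 1 to 3, against 4.09, 4.41 and 3.69 CPM in NK replicates 1 to 3. The log2 fold change of Pdcd1 was 4.90 ± 0.40 (edgeR adjusted p = 0.0377). Over the 17 alternatives its log2 fold change ran from 4.41 to 5.10, but the call ended in 6 of them. These were limma-voom (adjusted p = 0.0587), the replicate block (0.154), and the fits that left out replicate 1 or 2 of the ILC1s (0.124 and 0.0887) or of the NK cells (0.327 and 0.295). Many factors besides AP-1 act on these genes, and their link to the 10 factors was not tested.

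On GRCm38, the 10 genes are annotated as protein-coding. Fos (85473890 to 85477273) and Batf (85686669 to 85709087) lie on the forward strand of chromosome 12. Junb (84974484 to 84978718) and Jund (70698949 to 70700616) lie on chromosome 8, Jun on chromosome 4 (95049034 to 95052222), Atf3 on chromosome 1 (191170296 to 191218039) and Fosb on chromosome 7 (19302696 to 19310051). Fosl2 lies on chromosome 5 (32135801 to 32157842), Bhlhe40 on chromosome 6 (108660629 to 108666925) and Irf4 on chromosome 13 (30749226 to 30766976). Counts refer to whole genes. Exons of the antisense gene Junos overlap 232 bases of Jun, those of Prdx2 173 bases of Junb, those of Gm11175 877 bases of Jund and those of 0610040F04Rik 118 bases of Bhlhe40. Reads there may be shared or lost, since no source used here gives the strand setting of the counting. For Jund these are 877 of 1668 exon bases. How far this touched its place among the 10 genes or its share of the Jun group was not tested.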

How the data were processed

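mRNA of 3 ILC1 and 3 NK samples was selected with oligo(dT) beads and read as single ends of 50 bases on a BGISEQ-500, per the labels' protocols. The authors deposited raw counts per gene symbol. Per the submitters' processing notes, HISAT2 2.1.0, featureCounts 2.0.1 and GRCm38 were used. No source used here states the gene annotation, the strand setting or how reads with several positions were treated. Counts include PCR copies.

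Groups came from the cell type label. CPM used TMM-scaled totals. The main test was edgeR 4.0.16 in R 4.3.3 (TMM, filterByExpr, robust quasi-likelihood fit with cell type as the only term, Benjamini-Hochberg over 14475 genes, threshold 0.05). It was also run on simulated counts, where a pass was required only for the largest change, at a dispersion capped at 0.05. The common dispersion of these data was 0.352, so that run does not show how smaller changes fare here. SEs and 95% intervals come from the main edgeR fit. Log2 levels used a prior count of 2. Exon lengths and positions came from GENCODE M21, promoters from RefSeq. The 10 genes, the marker and pathway lists, the library sets and the tests were chosen with earlier results of these data known. Members are all named; from each list the rule names genes past the test, the 4 with the smallest p and the 3 with the highest level, of which a few are printed. Irf8 meets that rule by level. Alternatives were RLE or upper-quartile scaling, no filter, a filter at a mean of 5 CPM, the replicate number as a block, leaving out each library, DESeq2 1.42.0, limma-voom (limma 3.58.1) with and without library weights, a prior count of 0.5, library sets as a term, and the collagen-rich libraries alone. Pairs of libraries all differed by more than counting noise. Floors cover counting error only.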

Additional observations from a re-analysis of the deposited data

How the results depend on the processing

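Of 170 fold changes of single members under alternatives, 157 kept their direction and their side of the threshold. Those of 6 turned: Fos without ILC1 replicate 1 (0.02) or 2 (0.089), with a range of -0.65 to 0.089 over the left-out libraries; Fosb in the collagen-rich libraries alone (-0.021); Jun with limma-voom and library weights (0.014); and Batf with library sets as a term (0.10) or in the collagen-rich libraries alone (0.056). Another 5 passed the threshold: Atf3 with DESeq2 (2.44) and library weights (2.60), Fosb with library weights (1.04) and without NK replicate 3 (1.25), and Jund with library weights (-0.60). The adjusted p of Atf3 (0.56) and Fos (-0.81) also fell under the threshold in the collagen-rich libraries alone, but this is no test between the cell types, since that fit has 1 NK library and takes its spread from ILC1 replicates 1 and 2. The count of members called, 0 in the reported test, was 1 with DESeq2, 3 with library weights, 2 by threshold in the collagen-rich libraries alone, and 0 to 1 with single libraries left out. Over all genes, 12 were called, against 138 with no low-count filter, 1010 with DESeq2, 2212 with library weights, 33 with library sets as a term, 1891 in the collagen-rich libraries alone, and 0 to 449 with single libraries left out. In the collagen-rich fit the lone NK library is assumed to vary like the ILC1s. With library sets as a term the cell types are also compared through that NK library alone. The counts from both fits are thus not counts of differences between the cell types. The cause of these changes was not tested. The median log2 fold change over the members, 0.28, ran from 0.06 to 0.36 over the alternatives, with 0.06 in the collagen-rich libraries alone and 0.10 with library sets as a term. Shares within the Fos and Jun groups without length moved by more than their SD in 10 of 12 cases, because the genes differ in length; the Junb share was then 55.4% in ILC1s and 44.5% in NK cells.

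The labels do not say whether equal replicate numbers mark shared samples. Deviations from the group means of same-numbered libraries correlated at -0.36, -0.36 and -0.56 across genes, and none correlated best with its own number. Each group has 3 libraries, and replicate 3 stood apart in both groups, so these values cannot tell whether samples were shared. With a replicate block, 0 genes and 0 members were called. Depth limits Irf4 most, at 55 to 65 counts in NK libraries.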

Other observations

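Some bZIP and immediate early genes outside the 10 also differed widely between libraries of the same cell type. They were picked out after their values were seen. Fosl1, which encodes FRA-1, had 29.7, 37.0 and 2.20 CPM in ILC1 replicates 1 to 3, against 2.99, 2.82 and 18.1 CPM in NK replicates 1 to 3, so it was high in the collagen-rich libraries and low in the other 3. Egr1, an immediate early zinc finger gene, had 799.9, 836 and 323 CPM in ILC1 replicates 1 to 3, against 218, 136 and 614 CPM in NK replicates 1 to 3. Ier3, an immediate early gene, had 117, 167 and 627 CPM in ILC1 replicates 1 to 3, against 28.4, 7.70 and 102 CPM in NK replicates 1 to 3, which puts the 6 libraries in the same order as Atf3 does. Batf3, the relative of Batf needed by cross-presenting dendritic cells, did not exceed 2.31 CPM in any library.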
